A study of Mus musculus with 4 samples.

Results

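A set of 52 transcripts, out of 18193 genes on mouse heart arrays, read lower in both arrays labelled Rhau KO than in either array labelled Control. They were selected on these values. Each gene was taken at its brightest probe set, the lowest Control intensity had to be at least 500 and at least 1.8 times the highest Rhau KO intensity, and 67 genes met this. Of these, 15 belong to groups left aside here by symbol, among them heat shock, ubiquitin-specific protease, proteasome, translation initiation and histone demethylase genes. The differences of the 52 between the groups are therefore a description, and where counts from fits over all genes are given for them, nothing is read from those counts. Rhau KO stands for hearts of CAAG-ERT2-Cre;Rhau F/F mice, and Control for hearts of Rhau F/F mice, with 2 arrays per group. All were adult C57BL/6J animals, all carried the floxed alleles, and both genotypes received 5 doses of tamoxifen at 2 months of age, with hearts studied 2 months later. CAAG is a ubiquitous promoter and the Cre fused to ERT2 is switched on by tamoxifen, so the deletion was not aimed at one heart cell type, and the genotype given for the Control mice holds no Cre. No source used here says whether the replicates were separate animals. With 2 arrays in each group, the smallest two-sided p of an exact permutation test is 0.333.

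RHAU, encoded by Dhx36, is an RNA helicase of the DEAH box family that unwinds G-quadruplexes, folded structures of guanine-rich DNA or RNA, and binds RNAs with AU-rich elements. Through such RNAs it is known to act on transcription, mRNA stability and translation. The 52 transcripts encode proteins of many kinds, mainly chromatin enzymes and readers, transcription factors, RNA-binding proteins, ubiquitin ligases and signalling proteins.

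The arrays ran against their labels, or apart from each other, in several respects. Dhx36 itself averaged higher on the arrays labelled Rhau KO for all 3 of its probe sets, with 568 and 537 there on the brightest, against 327 and 194 in the Control arrays, and so every direction below is given by label (KO-labelled for the arrays labelled Rhau KO). Esr1, the estrogen receptor gene, of whose protein ERT2 is a modified part, read 5.40 and 25.5 on the brightest probe set of the KO-labelled arrays, against 18035 and 19847 in the Control arrays. No source used here says whether this probe set reads the Cre fusion. The groups overlapped on both further probe sets of Esr1, on one at 7.90 and 43.8 on the KO-labelled arrays, against 518 and 28.7 in the Control arrays, and on the other, at 87.8 and 107 on the KO-labelled arrays, against 1936 and 74.0 in the Control arrays. Control replicate 1 held little of several heart transcripts. The summed intensity of 10 ventricular cardiomyocyte markers was 431491 and 428641 on the arrays labelled Rhau KO, against 123053 on Control replicate 1 and 433208 on Control replicate 2, and 3 of the 10 read under 100 on Control replicate 1, Tnni3 at 10.3, Mybpc3 at 53.2 and Ryr2 at 18.1. Others of the 10 stayed high on Control replicate 1, Myl2 at 37359, Myl3 at 37087 and Atp2a2 at 35567. The sum of 10 skeletal muscle markers was 31093 and 31656 on the KO-labelled arrays, against 429766 on Control replicate 1 and 30324 on Control replicate 2. Ckm alone read 30491 and 31305 on the KO-labelled arrays, against 39279 and 29873 in Control. Of these 10, 7 and 8 read under 100 on the KO-labelled arrays, against 0 on Control replicate 1 and 8 on Control replicate 2. Control replicate 2 stood apart in the heat shock gene Hspa1a, which read 1141 and 582 on the arrays labelled Rhau KO, against 631 on Control replicate 1 and 18079 on Control replicate 2. None of the 52 is on a marker list. The part that these differences between arrays play in the 52 transcripts was not tested. In tissue RNA, fewer cells of a type and less RNA per cell cannot be told apart.

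The 52 transcripts were 1.94-fold (Ezh2) to 5.90-fold (Bex1) lower on the arrays labelled Rhau KO, with a median of 2.66-fold, and 17 of them were at least 3-fold lower. On the log2 scale, Rhau KO minus Control, their median was -1.41, beside 0.09 over all genes and 0.02 over the 5421 genes whose lowest Control intensity was at least 500. The same rule turned round, lower in both Control arrays, found 30 genes, beside the 67. By limma, 48 of the 52 passed a fold of 2 with an unadjusted p under 0.05, where 1.64% of all genes did so in this direction, and 31 passed them by the methods' t-test, where 0.94% did. None passed an adjusted p under 0.05 (all at adjusted p = 0.873), and neither did any of the 18193 genes (0%), while 785 of all genes had an unadjusted p under 0.05 by limma and 941 by the methods' t-test. The groups did not overlap, with the arrays labelled Rhau KO lower, for 14.6% of all genes. Since the rule used this contrast, nothing is read from these counts.

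**Figure D1:**
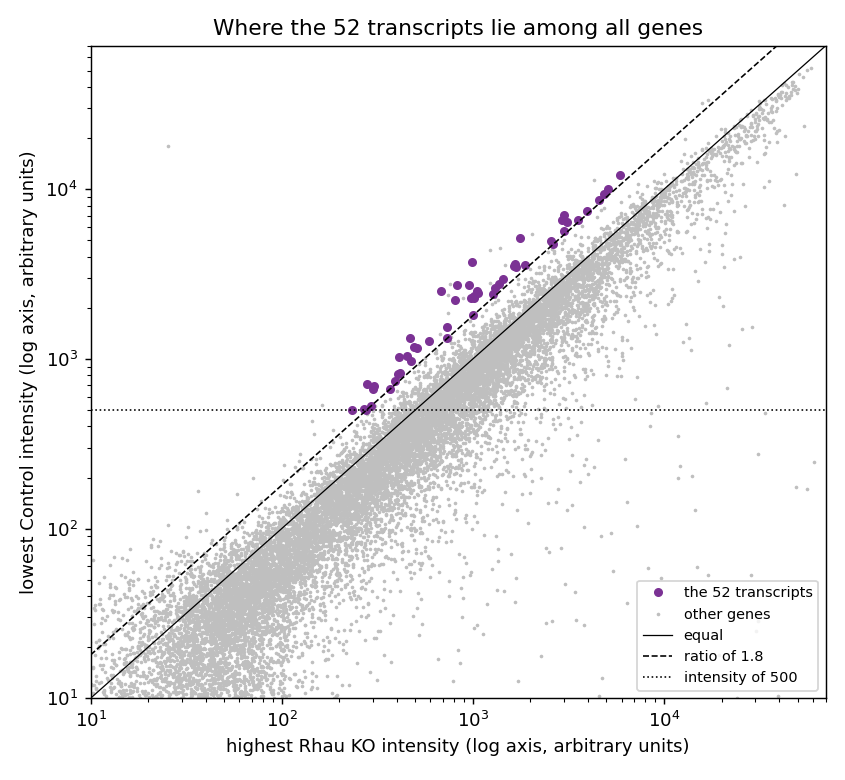
Highest intensity of the 2 arrays labelled Rhau KO (x axis) against lowest intensity of the 2 Control arrays (y axis), log axes in arbitrary units, 1 point per gene, with the 52 transcripts in purple. By the rule they lie above an intensity of 500 and above the dashed line at a ratio of 1.8, and the highest ratio among them is 3.73 (Bex1).

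The 2 arrays labelled Rhau KO lay close together for most of the set. They were within 1.1-fold of each other for 29 transcripts and within 1.2-fold for 40, with a median gap of 1.08-fold, beside 1.08-fold for the 5421 brighter genes. Tfrc, the transferrin receptor that imports iron, was the widest exception at 2553 and 1099 on the arrays labelled Rhau KO, against 4991 and 5781 in the Control arrays. Spin1, a reader of methylated histone H3, was the next, at 3003 and 1438 on the KO-labelled arrays, against 5715 and 5806 in the Control arrays. In these 2 transcripts Rhau KO replicate 2 was by far the lower one, and both Control arrays lay above both, as the rule requires.

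The Control arrays differed more from each other, in both directions. Their median gap was 1.35-fold, again as in the brighter genes (1.35-fold), 18 transcripts lay within 1.2-fold, and 14 read at least 1.5 times higher on Control replicate 1 while 6 read at least 1.5 times higher on Control replicate 2. Flvcr1, a membrane transporter of heme and choline, had the widest gap, with 271 and 293 on the arrays labelled Rhau KO, against 3522 on Control replicate 1 and 529 on Control replicate 2. Cobl, an actin nucleator, read 360 and 369 on the KO-labelled arrays, against 2963 on Control replicate 1 and 669 on Control replicate 2. Both were by far the highest in the array with the skeletal muscle markers, and for both the ratio lay just inside 1.8. The opposite case was Safb2, which read 245 and 302 on the arrays labelled Rhau KO, against 664 on Control replicate 1 and 1734 on Control replicate 2. Relative to the mean of the arrays labelled Rhau KO, the median of the 52 stood 1.46 log2 units higher on Control replicate 1 and 1.32 higher on Control replicate 2.

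**Figure D2:**
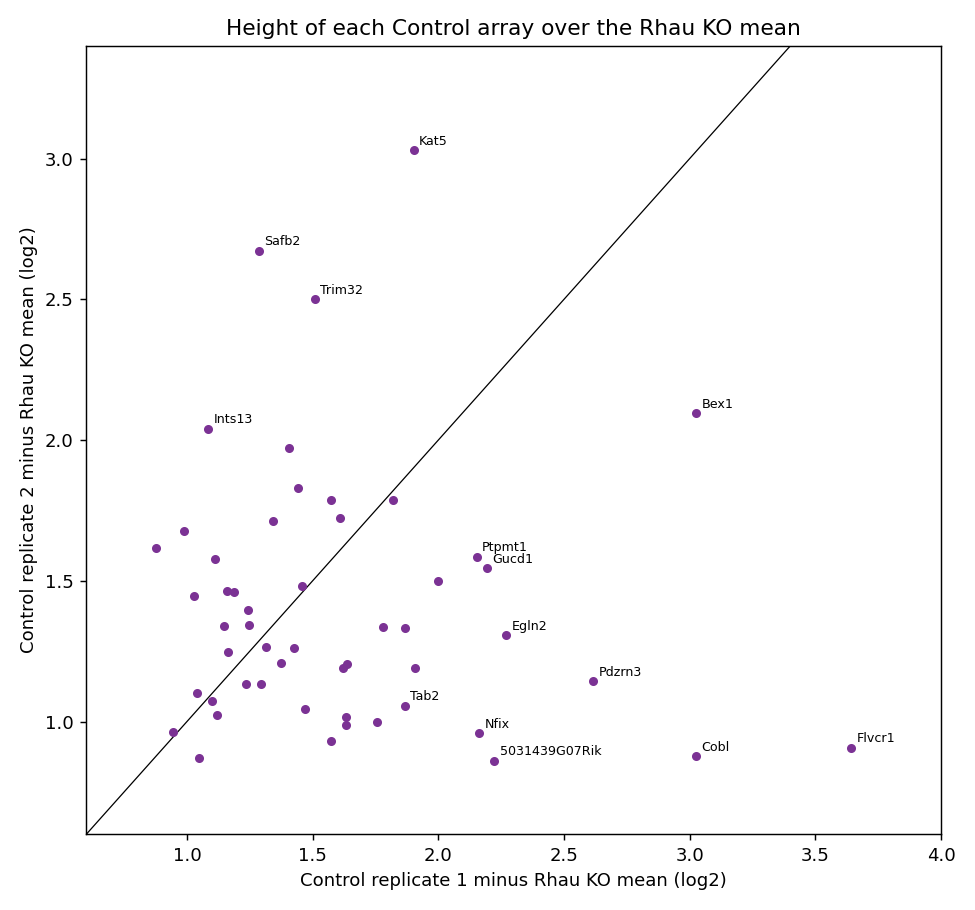
Log2 intensity of Control replicate 1 (x axis) and Control replicate 2 (y axis), each minus the mean log2 intensity of the arrays labelled Rhau KO, 1 point per transcript, with the line of equality. Of the 52, 30 lie on the side of Control replicate 1, with Flvcr1, Cobl and Pdzrn3 farthest out, and 22 on the side of Control replicate 2, with Safb2, Kat5 and Trim32 farthest out.

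The limit of 1.8 fell among transcripts of nearly equal ratio. The 5 just inside were B230308N11Rik, Cobl, Ddx6, Flvcr1 and 5031439G07Rik, with ratios of 1.82 down to 1.803, and the 5 just outside were Foxo4, Cnksr1, Nmrk2, Zdhhc5 and Pde7b, with ratios of 1.799 down to 1.77. 5031439G07Rik, the last one in, read 1003 and 989 on the arrays labelled Rhau KO, against 4649 and 1809 in the Control arrays. Foxo4, a forkhead transcription factor and the first one out, read 493 and 559 on the KO-labelled arrays, against 2183 and 1006 in the Control arrays. In both, Control replicate 1 was more than 2-fold above Control replicate 2. Of the other 4 outside, Cnksr1 (scaffold protein) read 180 and 285 on the KO-labelled arrays, against 1330 and 510 in Control, and Nmrk2, a muscle kinase of NAD synthesis, 482 and 520 on the KO-labelled arrays, against 2044 and 929 in Control. Zdhhc5, a palmitoyltransferase, read 641 and 731 on the KO-labelled arrays, against 1320 and 1302 in the Control arrays, and Pde7b, a cAMP phosphodiesterase, 1228 and 1309 on the KO-labelled arrays, against 3514 and 2317 in the Control arrays. At the other limit, Wdr59 met the ratio but missed the level, with 238 and 242 on the arrays labelled Rhau KO, against 496 and 619 in the Control arrays. In the paper's RNA-Seq of younger hearts with Rhau deleted in cardiomyocytes, Wdr59 is listed as raised, the opposite direction by label. It is listed there as a candidate, and the candidates were genes that this RNA-Seq, the paper's microarray comparison and a set of mRNA G-quadruplexes had in common.

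Promoter sequence was compared because RHAU acts on guanine-rich sequence and because the set was selected to differ in 1 direction. In the RefSeq promoter table (GRCm38.p6), 48 of the 52 transcripts matched, with 73 windows of 250 bases before a start site. A G-quadruplex match, spelled as GGG 4 times with 1 to 7 bases (N) between the runs and searched on both strands, was in 21 of the 73 windows (28.8%) and in 18 of the 48 genes. Of all windows in RefSeq (32851), 16.6% held it, and of the 5764 windows of genes whose lowest Control intensity was at least 500, 25.4% did. The share was thus close to that of other genes of like level, and the median GC content was 64.8% in the windows of the 52, 60.8% in those of genes of like level and 52.4% in all. The cAMP response element TGACGTCA was in 2 of the 73 windows (2.74%, beside 2.91% for genes of like level and 1.55% for all). The estrogen response element GGTCANNNTGACC and the heat shock element GAANNTTCNNGAA were in none of the 73, where 0.0639% and 0.466% of all windows held them, and the CCAAT box was in 35.6%, beside 34.5% for genes of like level and 33.8% for all. A match says only that these letters are in the window. The windows are DNA before a start site, while the paper studied RHAU binding to untranslated regions of mRNA. The shares thus do not show which mRNAs RHAU binds.
Among the 31 genes with exactly 1 window, the 3 with the largest ratio that held a G-quadruplex match and the 2 that held the cAMP response element are shown 5′ to 3′ on the gene's strand, ending at the base before the start site. Capitals mark the match, guanine runs on the strand shown or cytosine runs where the match is on the other strand, and the second pair has the response element in capitals.
Irs2 (chr8:11008930-11009179, minus strand): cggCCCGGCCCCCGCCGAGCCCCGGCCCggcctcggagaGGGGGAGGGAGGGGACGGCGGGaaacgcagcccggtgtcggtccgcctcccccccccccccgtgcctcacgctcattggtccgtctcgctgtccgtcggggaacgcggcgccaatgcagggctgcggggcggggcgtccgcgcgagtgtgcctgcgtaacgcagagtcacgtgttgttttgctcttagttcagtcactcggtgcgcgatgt
Pou6f1 (chr15:100599985-100600234, minus strand): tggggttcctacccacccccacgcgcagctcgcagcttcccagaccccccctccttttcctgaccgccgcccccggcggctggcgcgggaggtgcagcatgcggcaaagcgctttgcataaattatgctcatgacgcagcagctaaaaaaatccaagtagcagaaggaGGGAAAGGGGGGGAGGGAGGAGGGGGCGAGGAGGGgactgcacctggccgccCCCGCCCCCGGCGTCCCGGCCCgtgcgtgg
Safb2 (chr17:56584586-56584835, minus strand): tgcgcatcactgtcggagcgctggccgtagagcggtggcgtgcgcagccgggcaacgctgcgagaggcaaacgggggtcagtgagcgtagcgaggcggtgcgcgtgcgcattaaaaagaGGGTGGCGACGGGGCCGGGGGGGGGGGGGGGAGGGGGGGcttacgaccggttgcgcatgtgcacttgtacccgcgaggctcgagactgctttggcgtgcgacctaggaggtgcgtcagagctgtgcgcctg
Oxsr1 (chr9:119322428-119322677, minus strand): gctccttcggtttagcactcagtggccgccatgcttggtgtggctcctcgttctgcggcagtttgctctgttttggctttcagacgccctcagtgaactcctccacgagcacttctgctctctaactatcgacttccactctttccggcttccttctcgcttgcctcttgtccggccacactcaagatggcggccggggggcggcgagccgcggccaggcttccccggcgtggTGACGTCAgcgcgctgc
Ppm1a (chr12:72760961-72761210, plus strand): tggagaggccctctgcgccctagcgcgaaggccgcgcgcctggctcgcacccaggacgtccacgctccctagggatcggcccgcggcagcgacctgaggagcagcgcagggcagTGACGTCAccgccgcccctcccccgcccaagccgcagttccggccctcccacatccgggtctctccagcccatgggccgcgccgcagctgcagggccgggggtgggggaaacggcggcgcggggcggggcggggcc
The 3 upper windows show how the matches differ. Irs2 and Pou6f1 have a match on each strand, and Safb2 a single run that includes an unbroken stretch of guanines. The element of Oxsr1 lies close to the start site and that of Ppm1a near the middle of its window.

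The chromatin group had 8 genes, 1.94-fold to 5.52-fold lower on the arrays labelled Rhau KO. Kat5, the acetyltransferase of the TIP60 complex, which modifies histones and proteins of the DNA damage response, read 667 and 684 there, against 2524 and 5517 in the Control arrays. Its second probe set gave 490 and 601 on the KO-labelled arrays, against 1866 and 4869 in the Control arrays. Kat5 was thus the most widely separated chromatin gene, at a similar fold on both probe sets, with Control replicate 2 the higher array on each. Mbd3, a core member of the NuRD remodelling complex, read 1060 and 989 on the arrays labelled Rhau KO, against 2548 and 2463 in the Control arrays. Phf23, whose PHD finger reads methylated histone H3, read 1018 and 930 on the KO-labelled arrays, against 2612 and 2336 in the Control arrays. The paper lists Phf23 among its candidates, which its RNA-Seq, its microarray comparison and a set of mRNA G-quadruplexes had in common. By RNA-Seq its mRNA is listed as raised, the opposite direction by label. That RNA-Seq used younger hearts with Rhau deleted in cardiomyocytes. Setd2, the methyltransferase that places trimethylation on lysine 36 of histone H3, read 592 and 553 on the KO-labelled arrays, against 1281 and 1579 in the Control arrays. In these 3 the arrays of each group lay close together, and the Controls differed from each other by less than the groups did. Daxx, a chaperone of histone H3.3, read 352 and 474 on the arrays labelled Rhau KO, against 969 and 1035 in the Control arrays. Hcfc2, a relative of the transcriptional coregulator HCF-1, read 944 and 1274 on the KO-labelled arrays, against 2431 and 2777 in the Control arrays. Ezh2, the methyltransferase of the Polycomb complex PRC2, read 275 and 249 on the KO-labelled arrays, against 503 and 510 in the Control arrays. It had the smallest fold of all 52, with a Control intensity of 506 ± 5.18 (SD, n = 2) that just met the limit of 500.

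The medians of their partners in the same complexes lay near that of all genes, a log2 difference of 0.09. The partner lists were written after the values of the 52 were seen. Over all 18193 genes, 7837 had a lower mean and 14.6% were lower in both arrays labelled Rhau KO. Each list is short, and nothing is read from its counts. Of the 13 other measured genes of the TIP60 complex, 4 had a lower mean and 3 were lower in both arrays labelled Rhau KO, and their median log2 difference was 0.09. Trrap, its large scaffold, read 751 and 775 on the KO-labelled arrays, against 542 and 658 in the Control arrays. The 9 other PRC2 genes had a median of 0.01, with 2 of them lower in both arrays, and the 12 other NuRD genes a median of 0.00, with 1 lower in both. Suz12, which PRC2 needs for activity, read 803 and 736 on the KO-labelled arrays, against 880 and 911 in the Control arrays, and Chd4, the NuRD ATPase, 1649 and 1685 on the KO-labelled arrays, against 1142 and 1720 in the Control arrays. None of these partners passed a fold of 2 with an unadjusted p under 0.05 in the lower direction by limma, where 1.64% of all genes did.

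The transcription group also had 8 genes, at 2.12-fold to 3.36-fold. Pou6f1, a POU domain factor whose promoter window is shown above, read 318 and 413 on the arrays labelled Rhau KO, against 1448 and 1024 in the Control arrays. Rtf1, which works with the PAF1 elongation complex in histone H2B ubiquitylation, read 848 and 979 on the KO-labelled arrays, against 3129 and 2303 in the Control arrays. Supt6, the elongation factor and histone chaperone SPT6, read 392 and 317 on the KO-labelled arrays, against 756 and 742 in the Control arrays. Rtf1 and Supt6 act on the same elongating polymerase. Of 8 other genes of that list only Leo1 was lower in both arrays, beside 14.6% of all genes. It read 340 and 334 on the KO-labelled arrays, against 834 and 473 in the Control arrays, and the median of the 8 was 0.04. Ints13, a subunit of the Integrator complex that cuts nascent RNA, read 407 and 361 on the KO-labelled arrays, against 812 and 1575 in the Control arrays. Its reading on Control replicate 2 was nearly 2-fold that on Control replicate 1. The 13 other Integrator genes had a median of -0.07, and 3 of them were lower in both arrays labelled Rhau KO, beside 14.6% of all genes. Ints4, a scaffold of the cleavage module, lay on the other side, with 1031 and 1154 on the KO-labelled arrays, against 652 and 725 in the Control arrays.

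Nfix, a nuclear factor I protein that acts in muscle development, read 4574 and 4282 on the arrays labelled Rhau KO, against 19803 and 8603 in the Control arrays. Of its other probe sets, 3 were lower in both arrays as well, beside 14% of all other probe sets. A dim probe set of Nfix overlapped, at 10.2 and 8.82 on the KO-labelled arrays, against 5.10 and 9.98 in Control. The relatives of Nfix overlapped between the groups, Nfia at 2231 and 1476 on the KO-labelled arrays, against 1600 and 1392 in Control, and Nfib at 5320 and 5752 on the KO-labelled arrays, against 5798 and 4927 in Control. Nfic overlapped too, with 1670 and 1973 on the KO-labelled arrays, against 5200 on Control replicate 1 and 1802 on Control replicate 2. The high reading of Control replicate 1 was therefore shared by Nfix and Nfic, and the reading of Control replicate 2 set only Nfix apart. The 3 zinc finger genes Zfp384, Zfp768 and Zfp91 complete the group. Zfp384, a DNA-binding protein of many tissues, read 917 and 1013 on the KO-labelled arrays, against 2283 and 2536 in the Control arrays, and Zfp768 398 and 414 on the KO-labelled arrays, against 828 and 1105 in the Control arrays. Zfp91, which also acts as a ubiquitin ligase in NF-kB signalling, read 3543 and 3404 on the KO-labelled arrays, against 10324 and 6624 in the Control arrays. These 3 are among 396 measured zinc finger genes (symbols starting with Zfp, Zbtb or Zc3h), of which 11 passed the fold of 2 and unadjusted p by limma in the lower direction and 6 in the higher one, where 299 (1.64%) and 300 (1.65%) of all 18193 genes did. The 11 include these 3, which the rule chose by the same contrast, and nothing is read from these counts.

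The 4 RNA-binding genes read higher on Control replicate 2 than on Control replicate 1, though by only 1.04-fold in Dhx15. Pum2, a Pumilio protein that binds and represses mRNAs, read 2994 and 2582 on the arrays labelled Rhau KO, against 7051 and 9115 in the Control arrays. Dhx15, a DEAH box helicase like RHAU that takes spliceosomes apart, read 5917 and 5827 on the KO-labelled arrays, against 12068 and 12599 in the Control arrays. Ddx6, the DEAD box helicase of P-bodies and mRNA decapping, read 2546 and 2632 on the KO-labelled arrays, against 4756 and 7934 in the Control arrays. Dhx15 was the most even of the 4, at 5872 ± 63.8 on the arrays labelled Rhau KO and 12334 ± 375 in the Control arrays (SD, n = 2 each). Safb2, a scaffold attachment factor that binds RNA and chromatin, was given above. Its relatives Safb, at 1265 and 1777 on the KO-labelled arrays, against 980 and 1474 in Control, and Sltm, at 1139 and 1403 on the KO-labelled arrays, against 1083 and 1162 in Control, had higher means on the arrays labelled Rhau KO. Of 10 other decapping and P-body genes, 3 were lower in both arrays, beside 14.6% of all genes, and the median was 0.07. Lsm14a, a P-body partner of Ddx6, was one of them at 2465 and 2383 on the KO-labelled arrays, against 6167 and 4254 in the Control arrays, and it passed the fold of 2 and an unadjusted p under 0.05 by limma (adjusted p = 0.873). Of 171 measured splicing and RNA-binding genes, chosen by symbol, 2 passed these thresholds in the lower direction and 2 in the higher one, again beside 1.64% and 1.65% of all genes. The 2 lower ones were Dhx15 and Ddx6, which the rule chose by the same contrast.

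The ubiquitin group had 7 genes and the second highest median fold, 3.11. Dcaf5, a substrate receptor of CUL4 ubiquitin ligases, read 846 and 959 on the arrays labelled Rhau KO, against 2744 and 2972 in the Control arrays. Its 3 other probe sets with a Control mean of at least 100 were all lower in both arrays, beside 15.8% of all such probe sets. That limit favours lower readings on the KO-labelled arrays, and nothing is read from this. A dimmer probe set of Dcaf5 lay on the other side, at 36.3 and 34.2 on the KO-labelled arrays, against 28.3 and 23.7 in Control. Trim32, a ligase of muscle proteins that is mutated in a limb-girdle muscular dystrophy, read 461 and 469 on the KO-labelled arrays, against 1322 and 2629 in the Control arrays. Rnf121, a ligase of the Golgi and endoplasmic reticulum membranes, read 378 and 494 on the KO-labelled arrays, against 1174 and 1535 in the Control arrays. These 3 were higher on Control replicate 2 than on Control replicate 1. Det1, which joins the COP1 ligase to CUL4, read 304 and 294 on the KO-labelled arrays, against 930 and 688 in the Control arrays. Trip12, a HECT ligase of the ubiquitin fusion degradation pathway, read 2927 and 2841 on the KO-labelled arrays, against 6570 and 7939 in the Control arrays. Its 4 other probe sets with a Control mean of at least 100 were lower in both arrays, and under this limit nothing is read from them. A dimmer probe set of Trip12 overlapped, at 21.9 and 21.1 on the KO-labelled arrays, against 10.9 and 33.9 in Control. Another was lower in both arrays, at 1.83 and 2.05, against 18.5 and 4.95 in Control. For Det1 and Trip12 the Control arrays lay closer to each other than to the KO-labelled arrays. Ube2g2, the conjugating enzyme of endoplasmic reticulum associated degradation, read 1588 and 1651 on the KO-labelled arrays, against 3813 and 3552 in the Control arrays. Pdzrn3, a ligase known from muscle differentiation and the neuromuscular junction, was the least even, with 1478 and 1674 on the KO-labelled arrays, against 9639 on Control replicate 1 and 3474 on Control replicate 2. The Control arrays thus lay far apart in Pdzrn3 and close together in Ube2g2. None of 4 other genes of the CUL4 ligases, Cul4a, Cul4b, Ddb1 and Dda1, was lower in both arrays, beside 14.6% of all genes. Ddb1, their adaptor, read 1879 and 2203 on the KO-labelled arrays, against 2175 and 3382 in the Control arrays. Of 315 measured genes of ubiquitin ligases and conjugating enzymes, chosen by symbol, 9 passed the fold of 2 and unadjusted p by limma in the lower direction and 3 in the higher one. Of all 18193 genes, 299 (1.64%) and 300 (1.65%) did so. The 9 include 4 of the 52 (Dcaf5, Trim32, Rnf121 and Ube2g2), which the rule chose by the same contrast, and nothing is read from these counts.

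**Figure D3:**
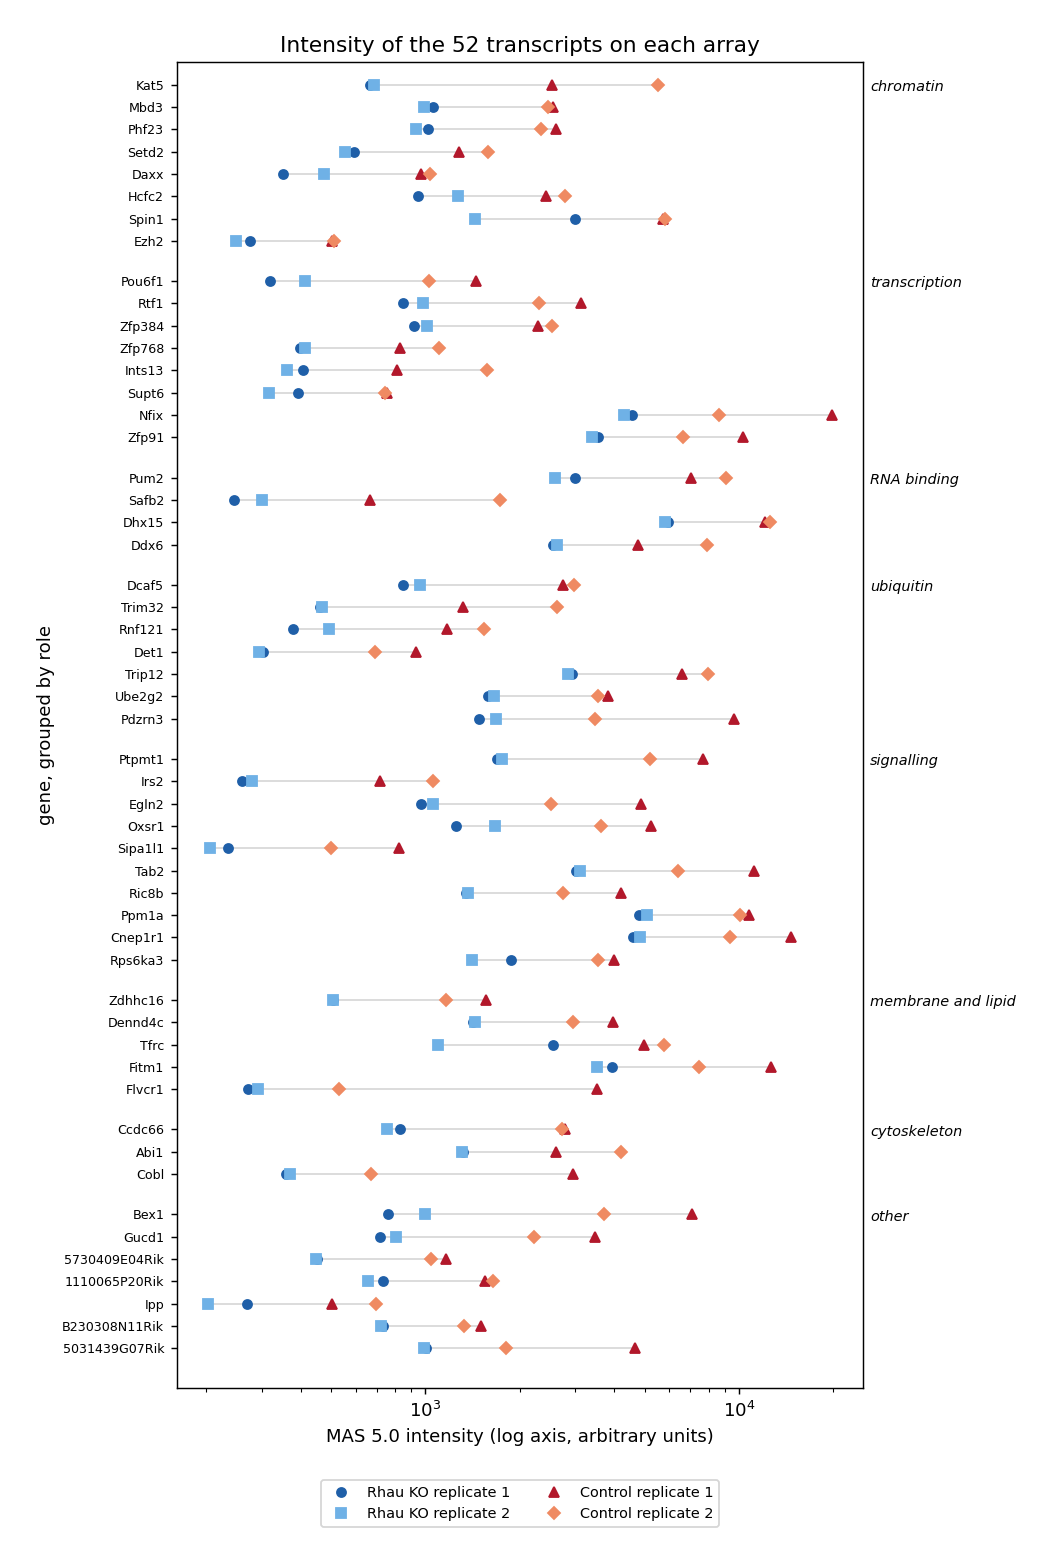
Intensity by MAS 5.0 on a log axis (arbitrary units) for the 52 transcripts, grouped by role, 1 symbol per array, with the arrays labelled Rhau KO in blue and the Control arrays in red and orange. In every row both blue symbols lie left of both Control symbols, as the rule requires. Control replicate 1 (triangles) is the higher Control in 9 of the 10 signalling genes and in none of the 4 RNA-binding genes, beside 30 of all 52.

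Signalling was the largest group, with 10 genes, and in 9 of them Control replicate 1 was the higher Control array. Irs2, an adaptor that carries the insulin signal from its receptor, was the exception, at 260 and 280 on the arrays labelled Rhau KO, against 715 on Control replicate 1 and 1058 on Control replicate 2. Irs1, its close relative, read 2850 and 2743 on the KO-labelled arrays, against 6079 and 3557 in the Control arrays, at a ratio of 1.25 that kept it out of the set. Irs2, by the rule, and Irs1 were thus lower in both arrays, beside 14.6% of all genes, while Irs3 and Irs4 read under 100 on every array. Egln2, a prolyl hydroxylase that marks hypoxia-inducible factors for degradation, read 971 and 1057 on the KO-labelled arrays, against 4881 and 2507 in the Control arrays. Egln1, the main enzyme of this family, read 11080 and 10374 on the KO-labelled arrays, against 7023 and 8731 in the Control arrays, and Egln3 2585 and 2039 on the KO-labelled arrays, against 2309 and 2016 in the Control arrays. The 3 prolyl hydroxylases did not run in one direction, and only Egln2, which the rule chose, was lower in both arrays labelled Rhau KO.

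Phosphatases and a phosphatase subunit were in the signalling group. Ptpmt1, a mitochondrial phosphatase of cardiolipin synthesis, read 1696 and 1759 on the arrays labelled Rhau KO, against 7678 and 5183 in the Control arrays. Ppm1a, a PP2C phosphatase that acts on SMAD and stress kinase signals, read 4788 and 5093 on the KO-labelled arrays, against 10735 and 10041 in the Control arrays. Cnep1r1, the subunit that activates the nuclear envelope phosphatase of lipin, read 4587 and 4832 on the KO-labelled arrays, against 14621 and 9344 in the Control arrays. All 3 were highest on Control replicate 1, and in Ppm1a the Control arrays were nearly equal. Of 10 other PP2C genes, 3 were lower in both arrays, beside 14.6% of all genes, and the median was 0.39. Ppm1b was one of the 3, at 5394 and 5363 on the KO-labelled arrays, against 11093 and 6400 in the Control arrays. Oxsr1, a kinase of ion transport below the WNK kinases, read 1251 and 1665 on the KO-labelled arrays, against 5259 and 3631 in the Control arrays. Its promoter window with the cAMP response element is shown above, as is that of Ppm1a. Stk39, a close relative of Oxsr1, overlapped, with 2464 and 1969 on the KO-labelled arrays, against 141 on Control replicate 1 and 1981 on Control replicate 2. None of the 4 WNK kinases was lower in both arrays, beside 14.6% of all genes. Wnk1 read 17264 and 17829 on the KO-labelled arrays, against 16839 and 24373 in the Control arrays.

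Among the remaining signalling genes, Tab2, which couples ubiquitin chains to the kinase TAK1, read 3029 and 3112 on the arrays labelled Rhau KO, against 11190 and 6384 in the Control arrays. Tab3, a partner of like function, was lower in both arrays too, with 628 and 493 on the KO-labelled arrays, against 702 and 1021 in the Control arrays. Map3k7, which encodes TAK1, overlapped, at 665 and 659 on the KO-labelled arrays, against 1117 and 653 in the Control arrays. Tab1, the third partner of TAK1, lay on the other side, with 272 and 235 on the KO-labelled arrays, against 230 and 188 in the Control arrays. The groups thus overlapped for the kinase, while Tab3 was lower on both KO-labelled arrays and Tab1 higher by a narrow gap. Tab2 was chosen by the rule, which sets the groups apart. Of all genes, 14.6% were lower in both arrays labelled Rhau KO, and nothing is read from the lack of overlap in these partners. Ric8b, a chaperone of G protein alpha subunits, read 1344 and 1371 on the KO-labelled arrays, against 4212 and 2748 in the Control arrays. Rps6ka3, the kinase RSK2 of the ERK pathway, read 1871 and 1411 on the KO-labelled arrays, against 3991 and 3562 in the Control arrays. Sipa1l1, a GTPase-activating protein of Rap, read 234 and 206 on the KO-labelled arrays, against 823 and 501 in the Control arrays. In these 3 Control replicate 1 was the higher Control array, and the groups did not overlap, as the rule requires.

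The membrane and lipid group had 5 genes, 2 of them in iron and heme handling. Tfrc and Flvcr1 are given above, and none of 7 other iron and heme genes was lower in both arrays, beside 14.6% of all genes. Fth1, the ferritin heavy chain, read 44561 and 46937 on the KO-labelled arrays, against 46063 and 42894 in the Control arrays. Fitm1, which partitions fat into lipid droplets in muscle, read 3946 and 3536 on the arrays labelled Rhau KO, against 12626 and 7456 in the Control arrays. Fitm2, its widely expressed relative, read 5887 and 5385 on the KO-labelled arrays, against 3512 and 2891 in the Control arrays. The 2 FITM transcripts thus lay on opposite sides. The rule set the groups apart in Fitm1. The share of all genes higher in both KO-labelled arrays is not given here, so nothing is read from the lack of overlap in Fitm2. Zdhhc16, a palmitoyltransferase, gave 507 and 507 on the arrays labelled Rhau KO, the closest pair of the set, against 1559 and 1159 in the Control arrays. Dennd4c, an activator of a Rab GTPase in vesicle traffic, read 1420 and 1436 on the KO-labelled arrays, against 3957 and 2948 in the Control arrays.

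Of the 3 cytoskeletal genes, Ccdc66, a centrosome and cilium protein, read 829 and 755 on the arrays labelled Rhau KO, against 2789 and 2728 in the Control arrays, and on its dimmer probe set 67.6 and 87.2 on the KO-labelled arrays, against 411 and 480 in the Control arrays. Abi1, an adaptor of the WAVE complex that drives branched actin, read 1313 and 1311 on the KO-labelled arrays, against 2603 and 4197 in the Control arrays. Of 7 other WAVE genes, 2 were lower in both arrays, beside 14.6% of all genes, and the median was 0.18.

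The remaining 7 genes were not placed in a group. Bex1, an adaptor protein known from neurons and regenerating muscle, had the largest fold of all 52, with 757 and 994 on the arrays labelled Rhau KO, against 7071 and 3707 in the Control arrays, or 876 ± 168 on the KO-labelled arrays and 5389 ± 2379 in the Control arrays (SD, n = 2 each). The other Bex genes measured, Bex2, Bex4 and Bex6, read under 100 on every array. Gucd1, a guanylyl cyclase domain protein, read 716 and 806 on the KO-labelled arrays, against 3479 and 2218 in the Control arrays. Ipp, a kelch repeat protein, read 270 and 202 on the KO-labelled arrays, against 505 and 698 in the Control arrays. Both were lower by more than 2-fold. The 4 transcripts with clone names ranged from 1.95-fold (B230308N11Rik, 732 and 721 on the KO-labelled arrays, against 1503 and 1330 in the Control arrays) to 2.91-fold lower (5031439G07Rik). 5730409E04Rik read 451 and 448 on the KO-labelled arrays, against 1165 and 1038 in the Control arrays, and 1110065P20Rik 732 and 655 on the KO-labelled arrays, against 1553 and 1643 in the Control arrays.

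**Figure D4:**
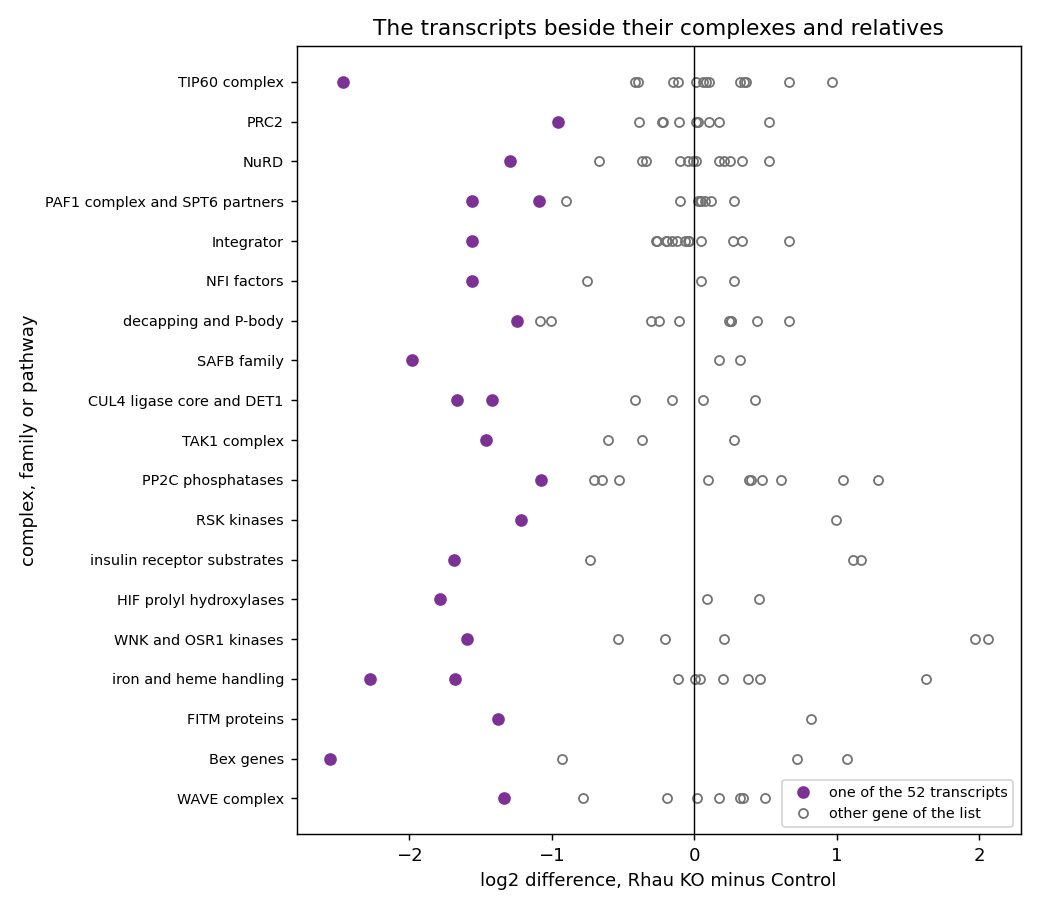
Log2 difference, Rhau KO minus Control, of the transcripts of the set (filled purple) and of other genes of the same complex, family or pathway (open grey), 1 row per list. The filled points lie at -0.95 or below, and the medians of the open points run from -0.37 (TAK1 complex) to 1.12 (insulin receptor substrates, where Irs3 and Irs4 are dim).

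The rule used only the brightest probe set of each gene, so the other probe sets are a second reading of the same RNA on the same arrays, in the same contrast and therefore without a test. For 21 of the 52 transcripts there was 1 probe set, and for 31 there were 65 others. Of these 65, 41 (63.1%) were lower in both arrays labelled Rhau KO, where 14% of all other probe sets were. Their median log2 difference was -0.83, beside 0.08 for all other probe sets. To leave out dim probe sets, those with a Control mean of at least 100 were taken, 45 of 26 genes, of which 36 (80.0%) were lower in both arrays, beside 15.8% of 7833 such probe sets. This limit looks only at the group in which the 52 are high and so favours lower readings in the other group, and nothing is read from the higher share. With a mean over all 4 arrays of at least 100, a limit added after the values were seen, 35 of 44 (79.5%) were lower in both arrays, beside 14.3% of 7889. Among the 45, in 19 of the 26 genes each such probe set was lower in both arrays. This count rests on the same limit on the Control mean, and nothing is read from it. Pum2 had 2 such probe sets, the brighter at 1645 and 1625 on the KO-labelled arrays, against 3611 and 4120 in the Control arrays. Dhx15 had 1, at 4700 and 4700 on the KO-labelled arrays, against 9463 and 10522 in the Control arrays. The groups lay 2.36-fold apart on this probe set of Pum2, beside 2.88-fold on its brightest one, and 2.12-fold for Dhx15, beside 2.10-fold.

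For 3 of the 26 genes no second reading was lower in both arrays. Ddx6 read 999 and 1092 on the arrays labelled Rhau KO, against 916 and 1466 in the Control arrays, on one further probe set and 739 and 954 on the KO-labelled arrays, against 584 and 1223 in the Control arrays, on another. Det1 read 289 and 244 on the KO-labelled arrays, against 257 and 252 in the Control arrays, on its other probe set. For Tfrc it was 91.6 and 129 on the KO-labelled arrays, against 113 and 190 in the Control arrays, and the array's 3 control probe sets for Tfrc, placed at the 3′ end, the middle and the 5′ end of the transcript, read 3.84 to 59.4 on the arrays labelled Rhau KO, against 12.6 to 68.1 in the Control arrays. Safb2 was divided, with one probe set at 74.8 and 107 on the KO-labelled arrays, against 149 and 417 in the Control arrays, and another at 214 and 174 on the KO-labelled arrays, against 155 and 156 in the Control arrays. For Ppm1a 3 of 5 were lower in both arrays, for Spin1 2 of 3 and for Ints13 1 of 2, the other at 131 and 155 on the KO-labelled arrays, against 108 and 310 in the Control arrays. No source used here gives the part of each transcript that the probe sets read. The signal ratio of the 3′ to the 5′ control probe set, a measure of RNA integrity, was 1.55 and 1.41 for Actb on the arrays labelled Rhau KO, against 1.02 and 1.31 in the Control arrays, and 0.783 and 0.810 for Gapdh on the KO-labelled arrays, against 0.810 and 0.762 in the Control arrays. Its part in the probe set differences was not tested.

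**Figure D5:**
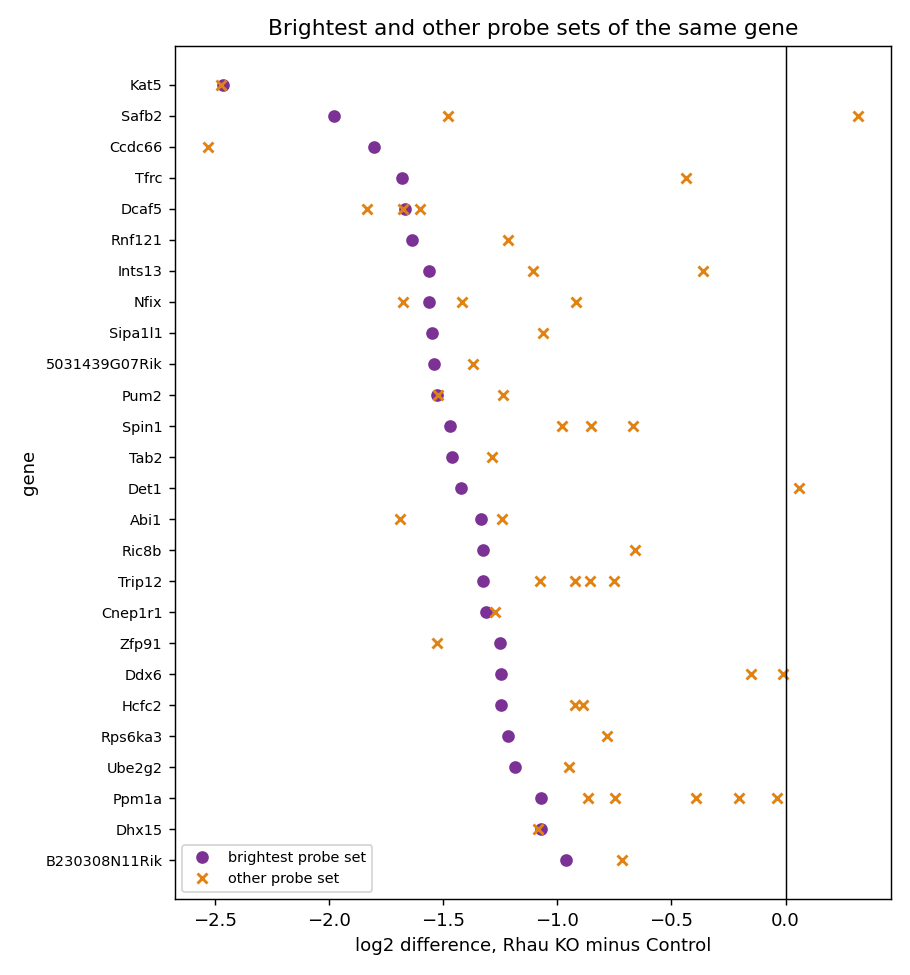
Log2 difference, Rhau KO minus Control, of the brightest probe set (purple circle, used by the rule) and of each other probe set with a Control mean of at least 100 (orange cross) for 26 genes. Of the 45 crosses, 43 (95.6%) lie left of 0, beside 47.0% of 7833 such probe sets of all genes. The 2 to its right belong to Safb2 and Det1. The limit on the Control mean favours lower readings on the arrays labelled Rhau KO, and nothing is read from this count.

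Because the Control arrays differed in their markers, each was also left out in turn. The rule holds for each array, so it fixes the direction of all 52 here, and only the size of the difference could move. Without Control replicate 1, the log2 differences were -3.03 to -0.86, 34 had an adjusted p under 0.05 by limma, beside 0.649% of all genes in this direction, and 43 passed the fold of 2 with an unadjusted p under 0.05, beside 1.54%. Without Control replicate 2, the log2 differences were -3.64 to -0.88, with 50 at an adjusted p under 0.05, beside 8.98% of all genes, and 49 at the fold and unadjusted p, beside 6.45%. With 1 Control array left, that array is assumed to vary like the others. Without Rhau KO replicate 1 or replicate 2, none had an adjusted p under 0.05, and 19 and 18 passed the fold of 2 with an unadjusted p under 0.05, beside 1.12% and 1.19% of all genes. With the replicate number as a block, 50 passed them, beside 1.73%. These counts come from the contrast that the rule used, and nothing is read from them. Flvcr1 had a log2 difference of -0.91 without Control replicate 1 and -3.64 without Control replicate 2, Cobl -0.88 and -3.02, and Kat5 -3.03 and -1.90, in the same order. Ccdc66, at -1.79 and -1.82, and Dhx15, at -1.10 and -1.04, stayed close to each other. Of the 65 other probe sets, the share lower on the KO-labelled arrays without overlap was 70.8% without Rhau KO replicate 1, 73.8% without Rhau KO replicate 2, 81.5% without Control replicate 1 and 67.7% without Control replicate 2, where 26.4%, 25.6%, 31.6% and 34.5% of all other probe sets met the same looser condition.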

How the data were processed

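Total RNA of mouse hearts was hybridised to 4 Affymetrix mouse expression arrays (2 Rhau KO, 2 Control). The authors normalized the scans with MAS 5.0 in GeneSpring 11.0, and the deposited values are linear intensities in arbitrary units. No detection call was used. The number of arrays limits the precision. Of 45101 probe sets, 64 controls were left out, and 34958 carry 1 gene symbol in GEO's platform table, 932 several and 9211 none. The brightest probe set of each symbol gave 18193 genes, 9010 of them with more than 1.

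Differences of log2 intensity, Rhau KO minus Control, were fitted by limma 3.58.1 (lmFit, then eBayes with a trend) under R 4.3.3, with the Benjamini-Hochberg adjustment of p over all genes, and the code was tested on simulated data. Tables and plots were made with Python 3.11.15, numpy 2.4.6, pandas 2.3.3 and matplotlib 3.10.9. A fold between groups is the difference of mean log2 intensities turned back to a ratio.

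The members and lists were chosen with earlier results of these data known. Values of all arrays were to be given for the 15 largest ratios, the 10 highest Control levels, 5 transcripts on each side of the limit, list members and genes with several other probe sets, and in the end were given for all 52. Lists by symbol asked for a digit after short stems such as Rab or Cul. Roles and partner lists were written after the values were seen, as was the choice to leave out arrays, or to set a mean level over all arrays, for the other probe sets. Promoter windows came from RefSeq (GRCm38.p6). Alternatives were other limits of the rule, quantile normalization, median centring, a pseudocount of 32, the mean of all probe sets, no trend, brighter genes only, the methods' t-test, a replicate block and each array left out.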

Additional observations from a re-analysis of the deposited data

How the results depend on the processing

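The rule itself fixes the direction of the 52 with a pseudocount, with the replicate block and with each array left out, so their direction there is no sign of stability. All 52 were lower with quantile normalization and median centring too and on the mean of all probe sets, which includes the one used by the rule. The rule found 112 genes at a ratio of 1.5 and 8 at a ratio of 2.5, and on each gene's average over its probe sets it found 32, of which 29 were among the 52. With 1 array left out it found 80 (without Rhau KO replicate 2) to 833 genes (without Control replicate 2). The median log2 difference was -1.54 with median centring and -1.26 on the mean of all probe sets, where single transcripts ran from -2.56 to -0.21, and -1.46 to -1.32 with 1 array left out. Of the 52, 48 passed a fold of 2 and an unadjusted p under 0.05 by limma with all arrays, 31 by the methods' t-test and 18 to 49 with 1 array left out. The count at an adjusted p under 0.05 was 0 to 50 in those fits, 34 without Control replicate 1 and 50 without Control replicate 2. The share of other probe sets that were lower in both arrays was 67.7% to 81.5% with 1 array left out, beside 25.6% to 34.5% of all other probe sets, since fewer arrays make the condition easier to meet, and 79.5% with a mean over the 4 arrays of at least 100. Causes of these shifts were not tested.

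The difference between replicates 1 and 2 in Rhau KO did not follow that in Control across genes (r = 0.0060). The Control arrays differed in their muscle markers, so this value cannot show whether the samples were paired. With the replicate block the median log2 difference stayed at -1.41 and 50 transcripts passed the fold of 2 and the unadjusted p, beside 1.73% of all genes.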

Other observations

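By group of function, signalling genes and RNA-binding genes stood at opposite ends in which Control array read higher. Control replicate 1 was the higher Control in 9 of 10 signalling, 4 of 5 membrane and lipid, 5 of 8 transcription, 3 of 7 ubiquitin, 2 of 8 chromatin and 0 of 4 RNA-binding genes. The difference between these groups was not tested, and the groups were formed after the values were seen. The summed endothelial and macrophage markers differed between the same 2 arrays. The summed intensity of 6 endothelial markers was 10398 and 9809 on the arrays labelled Rhau KO, against 3671 on Control replicate 1 and 9899 on Control replicate 2. The sum of 6 macrophage markers was 8475 and 8056 on the arrays labelled Rhau KO, against 3902 on Control replicate 1 and 8095 on Control replicate 2. The sum of 7 fibroblast markers was 42140 and 40228 on the arrays labelled Rhau KO, against 47715 and 50219 on the Control arrays. Single fibroblast markers went both ways between the Control arrays, Col1a2 at 11014 on Control replicate 1 and 5037 on Control replicate 2, and Lum at 2490 and 10306, in the same order. Shisa4, which met the ratio of 1.8 but not the level of 500, read 185 and 13.2 on the arrays labelled Rhau KO, against 1315 and 381 on the Control arrays.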
